A study of Arabidopsis thaliana with 12 samples.

Results

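CBL, AT-HF, THIC and CYN of Arabidopsis thaliana encode enzymes of methionine, histidine, thiamin and cyanate metabolism. They are 4 of the 690 genes that had a probe annotated to them alone, in a table of 3439 probes. Each had 1 such probe, so no choice among probes was needed. The genes were picked for these roles and not for their values, although earlier results of the same data were known. The samples were total RNA of the wild type (WT, ecotype Columbia 0), with 6 array readings, and of the toc90 mutant, also of Columbia 0, with 6 readings. The labels describe toc90 as defective in bringing proteins across the outer envelope of the chloroplast. The sources used here name no allele, tissue, age or growth condition, nor whether readings came from separate plants, so p-values measure the spread between these readings, which may be technical. In RNA of whole samples, fewer cells of a type and less RNA per cell cannot be told apart.

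TOC90 belongs to the receptor family of the chloroplast import apparatus that includes TOC159, and most plastid enzymes are encoded in the nucleus, made in the cytosol and imported. CBL (AT3G57050) is cystathionine beta-lyase, which releases homocysteine, the precursor of methionine, in the plastid. AT-HF (AT4G26900, also called HISN4) is imidazole glycerol phosphate synthase, a fused enzyme of histidine synthesis that uses glutamine and gives off a purine intermediate. THIC (AT2G29630) makes the pyrimidine moiety of thiamin from another purine intermediate. CYN (AT3G23490) is cyanase, which turns cyanate and bicarbonate into ammonia and carbon dioxide. The array measured transcripts, so where these proteins lie in the cell was not measured here.

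None of the 4 transcripts passed limma's test of toc90 against WT in quantile normalized values with zeros included, where 18.8% of tested probes did. THIC passed by its rank within each reading, where 17.6% of all probes were called higher. THIC and CYN passed with median scaling, where 785 of 3161 tested probes were called higher. AT-HF was lower in toc90 in the values as deposited, where 32.1% of all probes were called lower, but it did not pass by rank. THIC and CYN had nearly the same deposited means in both genotypes, and CBL was scattered in toc90 around nearly the same mean. Levels of different probes are not set against each other, since an array value depends on the probe.

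The deposited values of the 2 genotypes differed over the whole table. Probes listed at 0 made up 13.5 to 17.3% of a reading in WT and 20.3 to 33.4% in toc90, and the median value of a reading was 0.151 to 0.157 in WT and 0.0593 to 0.0687 in toc90, while the mean value ran from 0.768 to 1.03 and from 0.736 to 1.06. The cause was not tested. Results are therefore given on 3 scales, namely the deposited value, the percentile rank of the probe among all probes of its own reading (zeros share the mean of their ranks), and log2 of the value plus an offset of 0.0274, quantile normalized, as used in limma. The rank serves to compare readings and not genes. Of 14 marker genes of green tissue, 4 were on single-gene probes (LHB1B2, PSAN, PSBW and PSBY). Their deposited values summed to between 72.6 and 111 in WT and between 62.4 and 117 in toc90. Those sums are carried by the brightest probes, PSBW and LHB1B2. Of the 4 markers, limma called 0 higher and 0 lower, against 18.8% of 3161 tested probes called, so 4 markers are too few to set apart from that share. In deposited values PSAN rose (two-sided exact permutation p = 0.0130, adjusted 0.0402), with 5 of its 6 toc90 readings above the WT range. By that test 34.8% of all probes were called. PSBY went the other way, from 3.16 in WT to 2.80 in toc90, with 4 of 6 toc90 readings below every WT reading (exact permutation p = 0.368, adjusted 0.536). The mean of PSBW was also lower (49.1 in WT, 44.7 in toc90), and that of LHB1B2 nearly equal (28.3 and 28.4). Paired by number, the adjusted sign-flip p was 0.0854 for PSAN and for PSBY, the lowest that any probe had in that test. None of 7 seed, 5 flower and 5 root markers was on a single-gene probe, so the tissue could not be checked further.

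In the methionine pathway, CBL had low values above 0 in all WT readings (coefficient of variation 27.8%) and split values in toc90. The 6 WT readings, in the order of their numbers, were 0.0615, 0.0261, 0.0447, 0.0559, 0.0606 and 0.0640. The 6 toc90 readings were 0.0359, 0, 0.221, 0, 0.0588 and 0. The toc90 readings thus enclosed the WT range, with 3 below every WT reading, all of them listed at 0, and 1 above every WT reading. The means were 0.0521 ± 0.0145 in WT and 0.0525 ± 0.0858 in toc90 (n = 6 each, ± SD), with a two-sided exact permutation p of 1 (adjusted 1 over all probes). The SD was 5.93 times as large in toc90 as in WT, where the median of that ratio over 3074 probes was 1.39, and 95.4% of them had a lower one. The size of that ratio rests on reading 3 of toc90, without which it was 1.88, against a median of 1.24 over 3056 probes. By rank, readings 1, 3 and 5 of toc90 stood at 41.7, 72.4 and 49.8%, above all WT readings at 19.4 to 28.3%. In deposited values readings 1 and 5 lay inside the WT range. Readings 2, 4 and 6 stood at 13.4, 16.7 and 10.2%, below all WT readings. Those ranks are means of tied zeros, which made up 26.7, 33.4 and 20.3% of the probes in these readings. Their place below WT thus rests on how ties are ranked.

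The log2 difference of CBL was 0.44 ± 0.53 (SE, limma adjusted p = 0.586), with a 95% interval of -0.71 to 1.59. This interval holds both a fall and a rise. The call and the sign for CBL changed with the treatment of zeros. With zeros taken as missing, which leaves 3 toc90 readings, it was called higher at 1.69 (limma adjusted p = 0.0224). In that setting 186 of 2687 tested probes were called higher. With zeros raised to the table's lowest positive value the difference of CBL turned to -1.07 (limma adjusted p = 0.847). Without reading 3 of toc90 the log2 difference was -0.04 (limma adjusted p = 0.964) and the difference of deposited means was -0.0332 (exact permutation test, adjusted p = 0.0948).

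**Figure D1:**
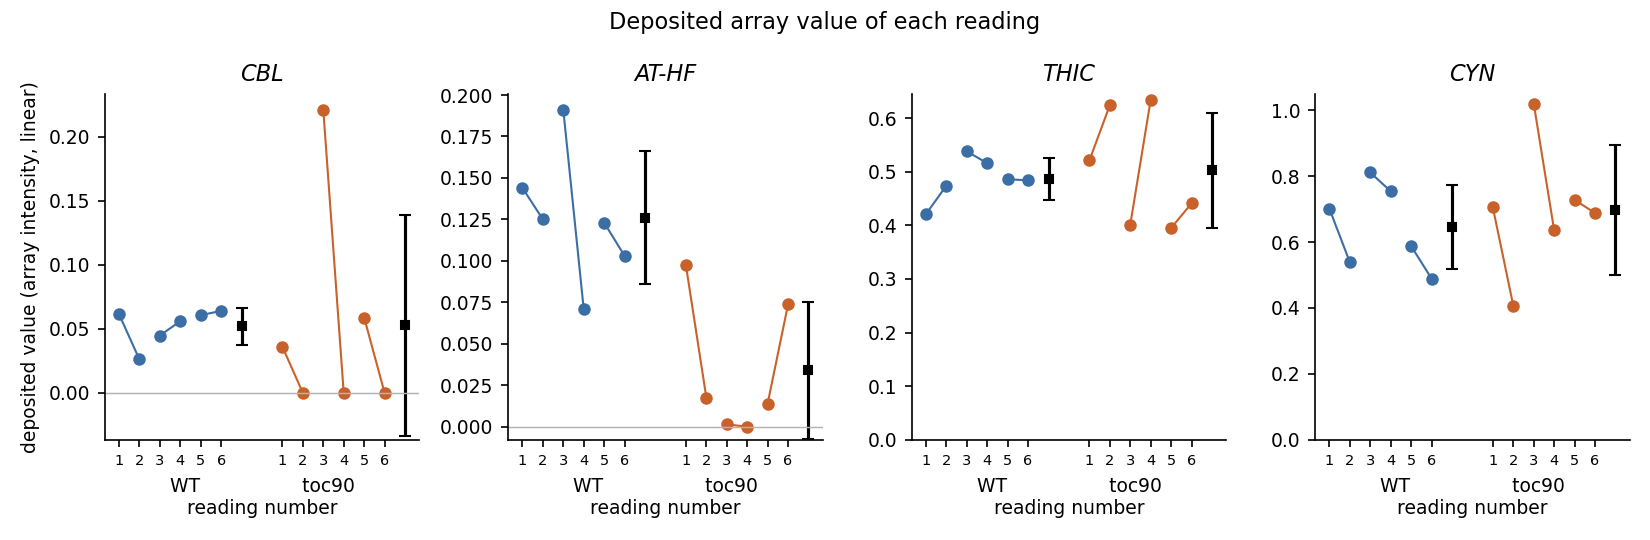
Deposited array value (linear intensity) of CBL, AT-HF, THIC and CYN in WT readings 1 to 6 (blue) and toc90 readings 1 to 6 (orange), each panel with its own vertical axis. Lines join readings of neighbouring numbers, and black squares with bars are the group mean and SD (n = 6); CBL has 3 toc90 readings at 0 and 1 at 0.221, and AT-HF is lower in all 6 toc90 readings than the WT mean of 0.126.

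In histidine synthesis, AT-HF was lower in toc90 in the deposited values. Its WT readings were 0.144, 0.125, 0.191, 0.0708, 0.123 and 0.103. Its toc90 readings were 0.0974, 0.0176, 0.00143, 0, 0.0139 and 0.0737. In all 6 toc90 readings AT-HF was below the WT mean, and in 4 it was below every WT reading, but readings 1 and 6 of toc90 reached into the WT range. The mean fell from 0.126 ± 0.0405 to 0.0340 ± 0.0412 (n = 6 each, ± SD), to 0.270 of the WT mean, with a two-sided exact permutation p of 0.00649 (adjusted 0.0232 over all probes). By that test 34.8% of all 3439 probes were called and 32.1% were called lower, so a fall on this scale was common on the array. With each toc90 reading set against the WT reading of the same number, the exact sign-flip p was 0.0312, the smallest that 6 pairs allow. The adjusted p was 0.0854. No probe can have a lower adjusted p in that test, so no probe was called by it. The lost call therefore carries no information on AT-HF. With neighbouring numbers averaged, toc90 stood at 0.0575, 0.000713 and 0.0438 and WT at 0.135, 0.131 and 0.113, which do not overlap, at an exact permutation p of 0.1, the smallest that 3 against 3 allow.

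Relative to the other probes of each reading, AT-HF did not pass the test. Its percentile rank was 43.2 ± 8.5% in WT and 37.5 ± 16.2% in toc90 (n = 6 each, ± SD, exact permutation p = 0.461, adjusted 0.613). The toc90 ranks ran from 16.7 to 60.0%, wider at both ends than the WT ranks of 31.9 to 55.9%. The 16.7% of reading 4, listed at 0, is the mean rank of tied zeros, which made up 33.4% of its probes. Reading 5, with a value above 0, also lay below every WT rank, at 28.6%. The difference of -5.8 percentage points ran from -10.3 without reading 1 of toc90 to -1.61 without reading 4. The log2 difference was -0.38 ± 0.39 (SE, limma adjusted p = 0.515, 95% interval -1.22 to 0.46). On the log2 scale without normalization between readings it was called lower, at -1.54 (limma adjusted p = 0.00543). On that scale 1253 of 3161 tested probes were called lower, and the median of all tested probes was -0.65.

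THIC, of thiamin synthesis, varied little in WT and more in toc90. Its WT readings were 0.421, 0.474, 0.538, 0.516, 0.486 and 0.484, with a coefficient of variation of 8.17%. Its toc90 readings were 0.521, 0.624, 0.401, 0.634, 0.395 and 0.441, with a coefficient of variation of 21.4%. The toc90 readings lay on both sides of WT, with 2 below and 2 above every WT reading. The means were 0.487 ± 0.0398 in WT and 0.503 ± 0.108 in toc90 (n = 6 each, ± SD, two-sided exact permutation p = 0.721, adjusted 0.846). The log2 difference without normalization between readings was 0.02, with a 95% interval of -0.38 to 0.42.

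Among the probes of its reading THIC stood higher in toc90. Its percentile rank was 79.6 ± 1.3% in WT and 83.7 ± 2.8% in toc90 (n = 6 each, ± SD, two-sided exact permutation p = 0.0108, adjusted 0.0398), and 4 of 6 toc90 ranks lay above every WT rank. By rank 28.3% of all probes were called and 17.6% were called higher. Paired by number, the exact sign-flip p was 0.0625 (adjusted 0.156). By rank no probe could be called in that test, since its smallest p of 0.0312 gave an adjusted p of 0.0981. The adjusted exact permutation p rose to between 0.0592 and 0.0863 when any 1 WT reading was left out. It stayed between 0.0188 and 0.0453 when any 1 toc90 reading was left out. With neighbouring numbers averaged the exact p was 0.1, the smallest possible. In limma THIC did not pass, at 0.43 ± 0.17 (SE, adjusted p = 0.1, 95% interval 0.06 to 0.81), which is 1.35 times the WT level.

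CYN, the cyanase gene, had overlapping values in the 2 genotypes. Its WT readings were 0.701, 0.539, 0.811, 0.754, 0.588 and 0.489. Its toc90 readings were 0.705, 0.407, 1.02, 0.636, 0.728 and 0.688. Of the toc90 readings 4 lay inside the WT range, reading 2 below it and reading 3 above it. The means were 0.647 ± 0.128 in WT and 0.697 ± 0.197 in toc90 (n = 6 each, ± SD, two-sided exact permutation p = 0.619, adjusted 0.761), and without reading 3 of toc90 the difference of means was -0.0144. Its percentile rank was 83.7 ± 1.8% in WT and 86.8 ± 2.3% in toc90, and as for THIC 4 of 6 toc90 ranks lay above every WT rank. The difference did not pass (exact permutation p = 0.0303, adjusted 0.0872) but did without reading 2 of toc90 (adjusted 0.0331). Paired by number, the exact sign-flip p of the rank was 0.0312 (adjusted 0.0981), the smallest possible. The log2 difference was 0.39 ± 0.18 (SE, limma adjusted p = 0.140, 95% interval 0.01 to 0.78), and without normalization between readings it was 0.08 with an interval of -0.41 to 0.57.

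**Figure D2:**
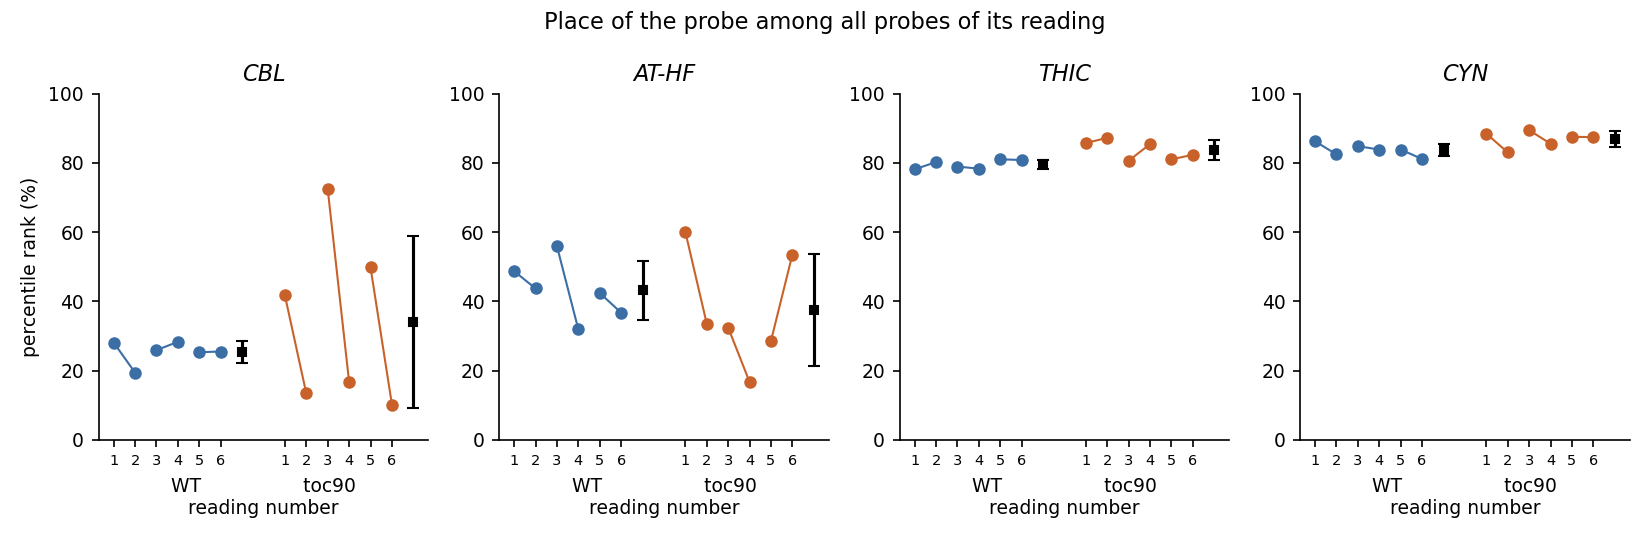
Percentile rank of each probe among the 3439 probes of its own reading (vertical axis, 0 to 100%) for WT (blue) and toc90 (orange), with lines between neighbouring numbers and black squares for the mean and SD (n = 6). CBL has 3 toc90 readings above and 3 below the WT readings, the 3 low ones being mean ranks of tied zeros. THIC and CYN move by 4.1 and 3.2 percentage points in their means.

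Set against the whole array, 0 of the 4 genes were called by limma, where 18.8% of 3161 tested probes were called, 10.5% lower and 8.26% higher. Before adjustment, the limma p was 0.0266 for THIC and 0.0455 for CYN, and 1070 of the 3161 probes were under 0.05. The groups did not overlap in deposited values for 0 of the 4 genes, against 21.3% of all probes. The median log2 difference of the 4 genes was 0.41 and that of all tested probes 0.04. The 593 calls split into 261 higher and 332 lower, or 44.0% higher. That share was 28.9% with zeros as missing, 55.7% with zeros raised to the lowest positive value, 70.2% with median scaling, 6.0% without normalization between readings and 26.5% with neighbouring numbers averaged.

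The scale decided the calls on THIC and CYN. With each reading scaled to a common median, both were called higher, at 1.27 ± 0.20 and 1.34 ± 0.23 (SE, limma adjusted p = 0.000302 and 0.000577). In that setting 785 of the 3161 tested probes were called higher, and the median of all tested probes moved to 0.22. Of 15 settings of the fit with no reading left out, THIC and CYN were above 0 in all 15 and called with median scaling only. AT-HF was below 0 in all 15 and called lower in 1, the values without normalization, where 1253 of 3161 probes were called lower. CBL was above 0 in 13 and below 0 in 2, and called in 1, with zeros as missing.

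**Figure D3:**
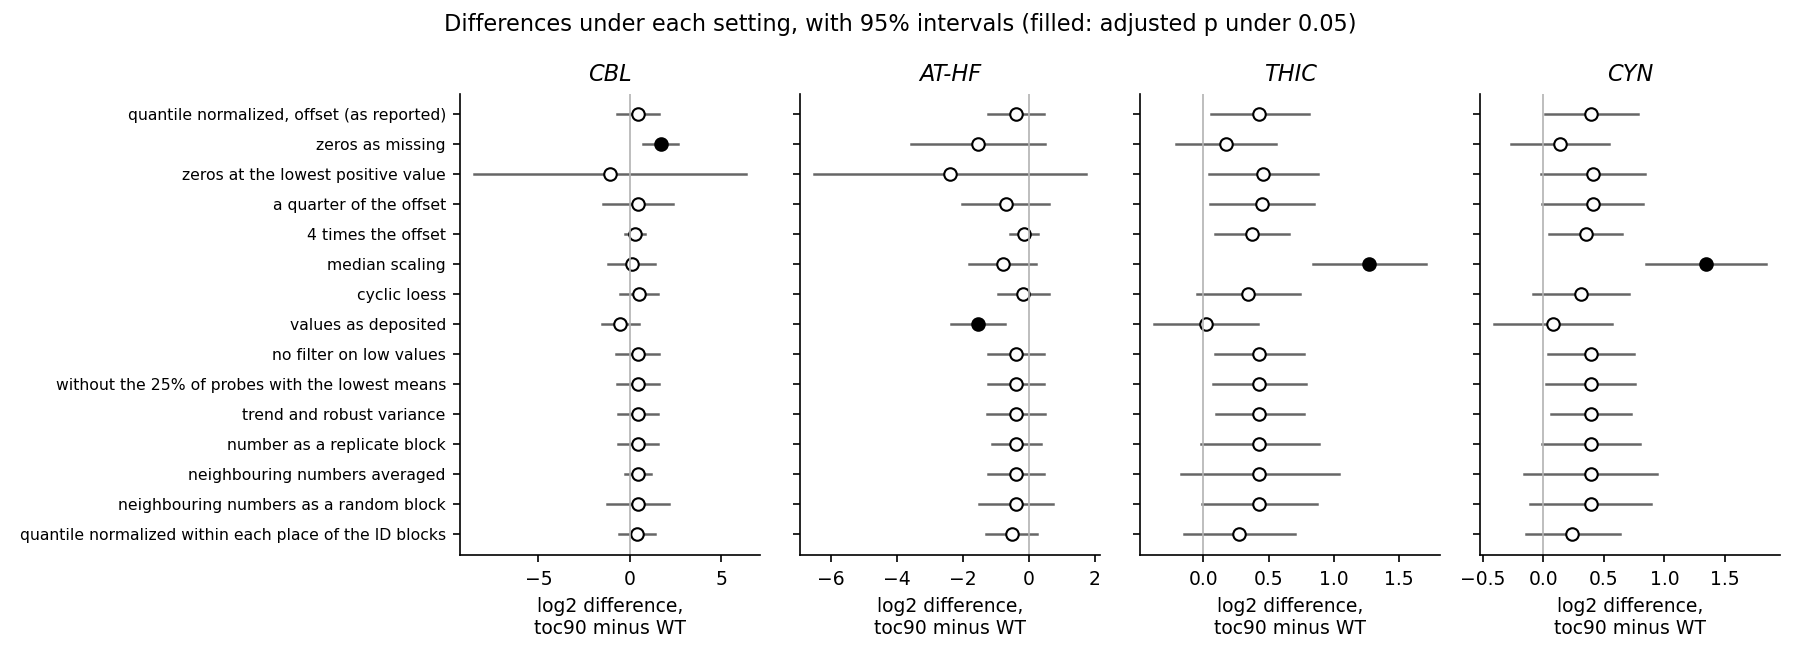
Log2 difference of toc90 minus WT (horizontal axis, its own range in each panel) with its 95% interval for the 4 genes in 15 settings of the limma fit, filled where the adjusted p is under 0.05. Each gene is filled in 1 of the 15 settings, and the setting differs between CBL, AT-HF and the pair THIC and CYN.

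All 4 probes also shared a place in the numbering of the array. When probe IDs are taken in blocks of 96 and blocks in runs of 3, a grouping taken over from earlier results of these data, CBL (block 22), AT-HF (block 7), THIC (block 25) and CYN (block 10) all lay in the first place. There the median log2 difference of 1042 tested probes was 0.16, with 11.5% called higher and 5.5% lower. In the other two places it was -0.05 and -0.03, with 5.1 and 8.2% called higher and 14.9 and 11.1% lower. Normalized within each place, the log2 differences were 0.39 for CBL, -0.51 for AT-HF, 0.27 for THIC and 0.24 for CYN, none of them called (limma adjusted p = 0.583, 0.338, 0.351 and 0.365). The differences of THIC and CYN were thus smaller than the 0.43 and 0.39 obtained over all probes together.

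**Figure D4:**
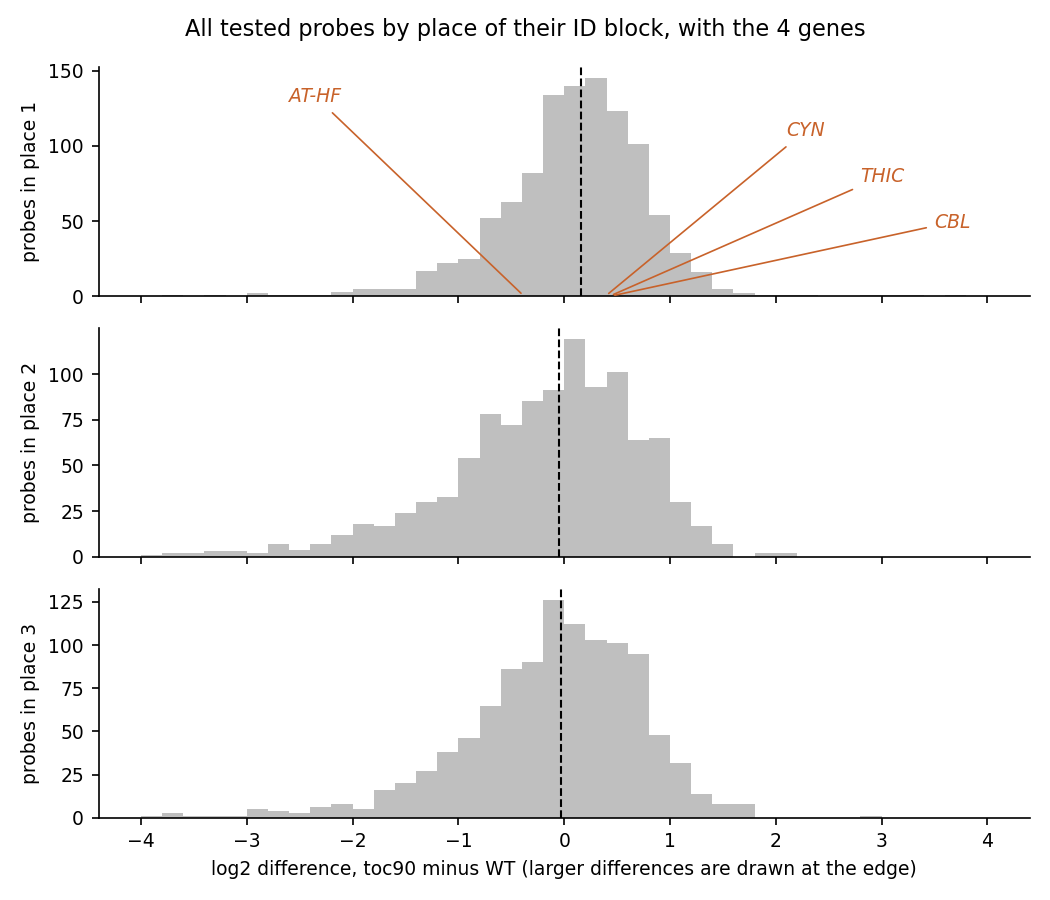
Number of tested probes (vertical axis) by log2 difference, toc90 minus WT (horizontal axis), for the 3 places of the ID blocks, with a dashed line at each median (0.16, -0.05 and -0.03). CBL, THIC and CYN lie at 0.44, 0.43 and 0.39 and AT-HF at -0.38, all in the first place.

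Of the other genes of these pathways few could be followed. None of 22 listed genes of methionine and cysteine synthesis, 10 of histidine synthesis, 6 of thiamin synthesis and 8 around cyanase was on a single-gene probe. Of 19 further genes of plastid amino acid synthesis, 2 were tested, and limma called 0 higher and 0 lower, against 18.8% of all tested probes called. AT3G58610 was 0.769 ± 0.200 in WT and 0.681 ± 0.197 in toc90 (n = 6 each, ± SD), and limma put the log2 difference at 0.10 ± 0.20 (SE, adjusted p = 0.766). AT3G23940 was 0.263 ± 0.0475 in WT and 0.150 ± 0.0784 in toc90, with 5 of 6 toc90 readings below every WT reading. On deposited values AT3G23940 fell (two-sided exact permutation p = 0.0130, adjusted 0.0402), as did 32.1% of all 3439 probes called lower by that test. Paired by number it had the smallest possible p, as AT-HF did (exact sign-flip p = 0.0312, adjusted 0.0854), in a test that called no probe. With normalization it did not pass (-0.05 ± 0.27, SE, limma adjusted p = 0.922).

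The 4 genes did not share a pattern over the 12 readings. Spearman's rho of the normalized values was 0.57 between CBL and CYN, -0.42 between CBL and THIC, and between -0.09 and 0.09 for the other 4 pairs. Over the same readings the genes most like each member, among single-gene probes above 0 in all 12 readings, were AT5G44000 (rho 0.85) and the chlorophyll synthesis gene CHLM (0.80) for CBL, and AT2G43760 (0.69) and the geranylgeranyl reductase gene AT1G74470 (0.61) for AT-HF. For THIC they were the photosystem I gene PSAN (0.93) and AT1G24310 (0.88), and for CYN AT2G28660 (0.95) and AT4G00590 (0.95). These are the highest of 273 or 274 candidates each, given as a description, and the 12 readings share a genotype difference and neighbouring numbers. Most of these probes, PSAN and CHLM among them, also lay in the first place of the ID blocks, as the members did. CHLM lay in the same block as CBL. Whether place adds to the likeness was not tested. PSAN, the closest to THIC, was 6.31 ± 0.945 in WT and 9.06 ± 2.24 in toc90 (n = 6 each, ± SD), and limma put it at 0.41 ± 0.17 (SE, adjusted p = 0.112), a log2 difference of nearly the same size as that of THIC. Of these 8 genes limma called AT1G24310 alone, at 0.95 (adjusted p = 0.0233), while its deposited mean was lower in toc90, at 0.0764 ± 0.0383 against 0.0896 ± 0.0227 in WT (n = 6 each, ± SD).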

How the data were processed

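The table held array intensity values of 12 readings, 1 channel per sample per the labels; how the authors scaled the deposited intensity, and with which scanner and background step, is not given in the sources used here. Values ran from 0 to 100.0, and 0 columns without a sample were found. The same highest value was reached in 5 of the 12 columns. Maxima rounded to 100.0 in toc90 readings 2 to 6 and in WT reading 3, and the reason was not tested. Groups and numbers came from the sample titles. Genes were named through the platform annotation, updated by the TAIR10.1 gene table (690 of 692 single-gene probes matched; 870 probes had several genes and 1877 none here). The members, lists and tests were chosen with earlier results of these data known. Named genes are the 4 members, tested list genes and the 2 most alike genes per member.

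An offset of 0.0274, the 10th percentile of values above 0, was added before log2. Columns were quantile normalized, and probes above 0 in at least 3 of 12 readings were fitted with limma 3.58.1 (R 4.3.3), two-sided, Benjamini-Hochberg adjusted over all 3161, at 0.05. Deposited values and ranks were tested exactly over all 924 assignments, adjusted over 3439 probes. Code was tested on simulated data. Alternatives changed zeros, offset, scaling, filter, variance, blocks and readings left out. Same-numbered readings deviated together across genotypes (r = 0.13 to 0.29 across probes for the 6 numbers, each reading best with its own number). The main tests treat the readings as unpaired. Tests paired by number were therefore run beside them, and the blocked value is given where it changes a call. Neighbouring numbers correlated at 0.32 to 0.59 in WT and -0.12 to 0.17 in toc90. These are correlations of deviations from the group mean, which lie below 0 for unrelated readings of 1 group. Values near 0 in toc90 thus do not show that neighbours were unrelated. Figures used matplotlib 3.10.9.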

Additional observations from a re-analysis of the deposited data

Results flagged for a closer look

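Of 24 sets of 6 readings examined for the members and the 2 further pathway genes, 3 had a reading far from the rest, where chance gives about 1 in 20. Reading 3 of toc90 had a deposited value of 0.221 for CBL, against 0.0588 for the nearest. Reading 2 of WT had a percentile rank of 19.4% for CBL, against 25.3% for the nearest. Reading 3 of toc90 had a percentile rank of 80.3% for AT3G58610, against 86.2% for the nearest.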

How the results depend on the processing

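The random block of neighbouring numbers, normalization within places, and the alternatives for ranks were chosen after seeing the data, and causes were not tested. Against 593 calls, zeros raised to the lowest positive value gave 314, median scaling 1119, no normalization 1333, neighbouring numbers averaged 204 and as a random block 312 (correlation 0.39); a replicate block of the numbers gave 511, and leaving out 1 reading 437 to 635. In log2, CBL turned from 0.44 to -1.07 with zeros raised to the lowest positive value and -0.51 without normalization, and was 1.69 with zeros missing; AT-HF was -1.54 without normalization, and THIC and CYN 1.27 and 1.34 with median scaling. Leaving out 1 reading gave -0.04 to 0.69 for CBL, -0.63 to -0.12 for AT-HF, 0.35 to 0.49 for THIC and 0.32 to 0.48 for CYN, none called. In deposited units, the difference of medians was -0.0403 for CBL and -0.00400 for THIC; AT-HF at -0.0921 lost its call with sign flips of pairs (replicate block) and with neighbours averaged (adjusted p = 0.249), where 20 assignments cannot give a p under 0.1. Leaving out 1 reading gave -0.0332 to 0.0109 for CBL, -0.105 to -0.0790 for AT-HF (called each time), -0.0101 to 0.0377 for THIC and -0.0144 to 0.108 for CYN. The rank difference of THIC (4.12, adjusted p = 0.266 with neighbours averaged and 0.156 with the replicate block) was 3.42 to 4.74, that of CYN 2.64 to 3.94, that of AT-HF -10.3 to -1.61 and that of CBL 0.921 (without reading 3 of toc90) to 13.4, with 1 reading left out. The replicate block changed no other call on the 4 genes. Sign flips of pairs called no probe of the table, in deposited values or by rank. The calls lost by sign flips thus carry no information on the genes. The number of arrays and the floor at 0 limit what can be seen for CBL and AT-HF.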

Other observations

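Within pairs of neighbouring numbers the 4 genes differed in a way noticed after seeing the data. CYN was higher in the lower-numbered reading of all 6 pairs, 3 in WT and 3 in toc90, as were 3.14% of all 3439 probes and 4.34% of the 1474 probes above 0 in all 12 readings. CBL was higher in the lower-numbered reading in 3 of 3 toc90 pairs and 1 of 3 WT pairs. THIC was lower there in 3 of 3 toc90 pairs and higher in 2 of 3 WT pairs, and AT-HF was higher in 5 of 6 pairs. What the numbers stand for is not given in the labels.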
